A study of Homo sapiens with 2 samples.

Results

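The regions described here are open chromatin regions of CAL27 cells that were listed both without and with added lactate, and at which the summit was at least 3 times as tall in the lactate library. CAL27 is an established line of oral squamous carcinoma, grown from a tongue tumour. ATAC-seq uses the Tn5 transposase, which inserts sequencing adapters where DNA is accessible, and was run on 1 library of untreated cells and 1 library of cells given 10 mM lactate for 24 h. No other genotype or agent separates the groups in the labels. Regions of both lists that overlapped were merged. A pileup is the number of tags, each extended to 200 bp around a Tn5 cut, that cover a summit, and the highest pileup of each library was taken in each merged region. The ratio is the lactate pileup over the untreated pileup, each divided by the total tags of its library (15401276 and 18248413).

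Of 130506 merged regions on chromosomes 1 to 22 and X, 86803 were present in both lists, and 73366 of these were left after omission of narrow single-summit regions of 218 to 226 bp. Summed pileups reached 100 tags in 13807 regions, and the ratio was 3 or more in 708 of them (5.13%). These 708 regions were chosen by the ratio of their highest pileups and by the summed tags, so their height in lactate is a description and not a finding, and with 1 library per group it has no replicate check and no test. All intervals given are 95% intervals that cover counting error only.

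Accessible regions are mostly promoters and distal elements such as enhancers, where transcription factors keep nucleosomes off the DNA. Tn5 cuts more often where DNA is free of nucleosomes in more cells or for more of the time, and in bulk cells these cannot be told apart. Lactate can be exported and taken up by cells, is exchanged with pyruvate by lactate dehydrogenase, and has been described as the source of lactylation, an acyl mark on histone lysines. Squamous carcinoma cells carry the open chromatin of stratified epithelium, with its keratins, desmosomes and lineage factors such as TP63. Of 16 markers of squamous keratinocytes, 14 had a shared region within 1 kb of an annotated gene end, against 61.9% of all protein-coding genes. Among markers of other cell types it was 1 of 9 for endothelium, 3 of 10 for neurons, 4 of 10 for fibroblasts and 6 of 11 for leukocytes. No marker had a tripled region at a gene end, where 1.48% of all protein-coding genes had one, so a count of 0 is uninformative. The squamous markers without a region at an end were TP63 and KRT14.

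Sequence was at hand for promoters. The 6 printed here include 4 of the 5 start sites lying inside a region with the highest ratios, ranked by ratio and not by height. That of HPCAL4, with a ratio of 4.74, is not printed, although ACAP2 and CHAF1A had lower ratios. The rest of the 6 are those of IRF1 and E2F1, transcription factors of the gene lists. Each is the 250 bases before the start site in RefSeq, build GRCh38.p14, 5′ to 3′ on the gene's strand. Capitals mark matches, on either strand, to GGGCGG (SP/KLF), CCAATC (NFY), CCGGAAG (ETS), GGAATG (TEAD) or CACGTG (E-box).
ARV1, chr1:230978844-230979093, plus strand: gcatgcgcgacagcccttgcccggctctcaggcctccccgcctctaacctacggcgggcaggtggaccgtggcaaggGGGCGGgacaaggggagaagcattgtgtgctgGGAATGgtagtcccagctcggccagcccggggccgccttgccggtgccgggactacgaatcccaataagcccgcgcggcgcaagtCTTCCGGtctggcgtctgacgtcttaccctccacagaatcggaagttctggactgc
SCAI, chr9:125143529-125143778, minus strand: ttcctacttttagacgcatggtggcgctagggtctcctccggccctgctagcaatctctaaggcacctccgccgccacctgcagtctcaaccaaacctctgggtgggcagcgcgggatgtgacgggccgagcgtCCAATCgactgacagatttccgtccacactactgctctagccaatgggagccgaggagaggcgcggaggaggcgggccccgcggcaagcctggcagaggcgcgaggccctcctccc
ACAP2, chr3:195443021-195443270, minus strand: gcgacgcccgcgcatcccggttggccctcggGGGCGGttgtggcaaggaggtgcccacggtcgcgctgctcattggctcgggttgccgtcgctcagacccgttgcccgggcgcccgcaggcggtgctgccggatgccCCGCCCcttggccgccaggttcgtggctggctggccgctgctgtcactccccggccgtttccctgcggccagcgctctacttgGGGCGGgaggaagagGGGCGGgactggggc
CHAF1A, chr19:4402390-4402639, plus strand: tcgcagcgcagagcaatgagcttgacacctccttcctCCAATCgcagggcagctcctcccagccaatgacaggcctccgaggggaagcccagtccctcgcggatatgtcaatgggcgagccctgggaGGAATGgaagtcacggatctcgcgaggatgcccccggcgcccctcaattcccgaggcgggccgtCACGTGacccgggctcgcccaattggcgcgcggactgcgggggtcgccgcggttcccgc
IRF1, chr5:132490774-132491023, minus strand: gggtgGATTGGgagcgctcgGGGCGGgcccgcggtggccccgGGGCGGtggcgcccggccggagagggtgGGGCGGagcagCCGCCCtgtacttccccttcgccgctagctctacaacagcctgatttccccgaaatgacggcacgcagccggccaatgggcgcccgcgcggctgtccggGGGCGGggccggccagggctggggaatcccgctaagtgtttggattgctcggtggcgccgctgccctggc
E2F1, chr20:33686386-33686635, minus strand: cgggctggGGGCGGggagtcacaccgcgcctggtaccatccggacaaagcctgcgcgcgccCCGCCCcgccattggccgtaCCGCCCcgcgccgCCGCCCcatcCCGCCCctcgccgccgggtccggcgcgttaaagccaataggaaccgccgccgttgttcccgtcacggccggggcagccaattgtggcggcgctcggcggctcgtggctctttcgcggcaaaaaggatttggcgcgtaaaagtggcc
The ACAP2 stretch held 4 matches to GGGCGG and that of E2F1 5, while IRF1 held 5 and 1 match to CCAATC. SCAI held a single CCAATC match, and ARV1 had 1 match each for SP/KLF, ETS and TEAD. In CHAF1A there was 1 match each for TEAD, NFY and the E-box. GC content of these stretches ran from 65.2% in SCAI to 74.8% in ACAP2. None of the marked motifs was in all of the 6, although the shorter letters CCAAT, on either strand, stood in each. A match is a description of letters rather than a bound site.

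Nearly all regions of this height stood above 1. The ratio exceeded 1 in 13655 of 13807 regions (98.9%), with a median of 1.94 (quartiles 1.62 and 2.32). No region had a ratio as far below 1 as the tripled ones are above it. The 708 tripled regions had a median ratio of 3.29 (quartiles 3.12 and 3.55), which is 1.70 times the median of all 13807. Divided by that median, their ratios ran from 1.55 to 3.04. The label "tripled" therefore holds per total tags. With pileups scaled to the summed pileups of all shared regions, a ratio of 3 becomes 1.70, and 1 region had a ratio of 3 or more on that scale. Without division by total tags, the lactate pileup was at least 3 times the untreated one in 183 regions. The authors' fold enrichment, a ratio to local background, had medians of 6.99 untreated and 15.7 lactate in the tripled regions. In the other regions they were 8.4 and 12.3.

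The tripled regions had untreated pileups of 21 to 120 tags (median 36) and lactate pileups of 72 to 321 tags (median 103). The other 13099 regions had medians of 54 and 85 tags. Summed tags were alike, with a median of 139 in the tripled regions and 138 in the others. At like sums, the choice by ratio fixes a lower untreated and a higher lactate pileup. At these depths the interval of a single ratio is wide. Its lower bound had a median of 2.27 and its upper bound a median of 4.92. The lower bound was 2 or more in 665 of 708 regions, 2.5 or more in 134 and 3 or more in 16. These bounds come from the pileups that the rule used, and the lowest of the 708 was 1.94, so the counts are a description. A choice by high ratio also makes the ratios and their intervals lean high. Among all 13807 regions, the lower bound was 2 or more in 1023 (7.41%). Since this is the same contrast as the choice of regions, nothing is read from the comparison. The threshold lies on a continuous slope, since 273 regions had a ratio from 3 to under 3.2 and 471 had one from 2.8 to under 3. Just above it stood regions at HTRA2 and PHF19, with 77 untreated and 195 lactate tags each and a ratio of 3.001, and at CAV2 with 30 and 76 tags. The others were within TK2 (62 and 157 tags) and 28375 bp from LOC124902436 (30 and 76). Just below it stood the PDIA6 start site, with 32 and 81 tags and a ratio of 2.999. Regions within PTPRF, near CASZ1 and 6130 bp from PDIA6 had the same tags, and 1 within PCOLCE2 had 49 and 124.

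**Figure D1:**
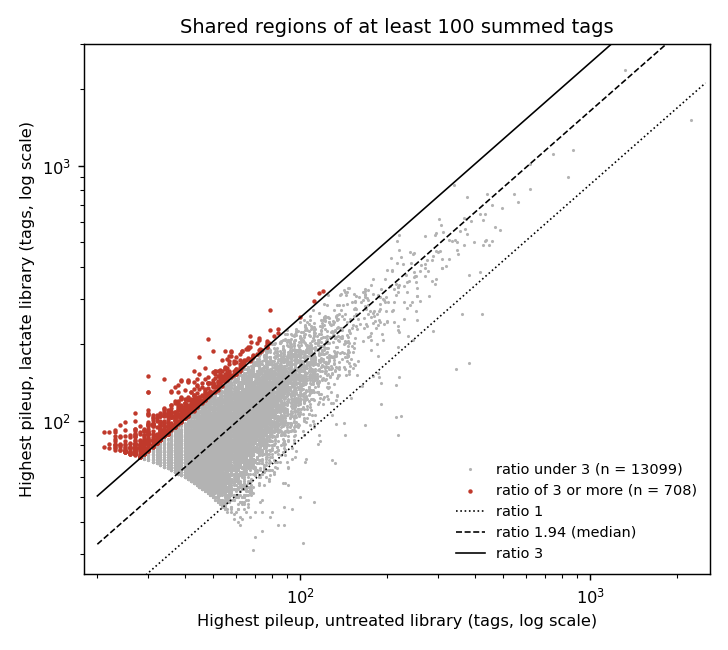
Highest pileup of each of 13807 shared regions of at least 100 summed tags in the untreated (x axis) and the lactate library (y axis), both in tags on log axes, with lines at ratios of 1, 1.94 and 3 per total tags. The 708 tripled regions (red) form the upper edge of 1 cloud whose median ratio is 1.94.

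The tallest ratio belonged to the shared promoter of ARV1, a lipid homeostasis protein of the endoplasmic reticulum, and TTC13, which is read in the opposite direction. There the untreated library had 30 tags and the lactate library 149 (chr1:230978662-230979362, hg38), a ratio of 5.88 (3.95 to 9.03). SCAI, a repressor of actin-dependent transcription by MRTF and SRF, followed with 48 and 209 tags at its start site (chr9:125143394-125143959), a ratio of 5.16 (3.75 to 7.22). These were both single-summit regions whose highest summits in the libraries lay 35 and 40 bp apart. CHAF1A, the large subunit of the chromatin assembly factor that loads histones during replication, had 37 and 135 tags, a ratio of 4.32 (2.99 to 6.40). ACAP2, a GTPase-activating protein for ARF6, had 50 and 188 tags, a ratio of 4.46 (3.25 to 6.21). The HPCAL4 start site, of a neuronal calcium sensor, had 23 and 92 tags, a ratio of 4.74 (2.98 to 7.85). Of these 5 promoters, ARV1 and HPCAL4 had fewer untreated tags than the median of 36 of all tripled regions, and the other 3 had more.

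The remaining gene-end regions with the highest ratios lay beside a start site or at the other end of a gene. Near ABHD11, a mitochondrial hydrolase, there were 34 untreated and 146 lactate tags, a ratio of 5.09 (3.48 to 7.62), 714 bp from an annotated end. TOLLIP, an adaptor that restrains Toll-like receptor signalling, had 23 and 87 tags 689 bp from its start site. AGAP3, another GTPase-activating protein of the ARF family, had 23 and 83 tags 61 bp from its start. These regions were low without lactate, at 23 to 34 tags. At gene ends of TRPC1, a cation channel, there were 23 and 85 tags, and of SCNN1D, a sodium channel subunit, 22 and 81. In SCNN1D the highest summits of the libraries lay 609 bp apart, so its ratio of 4.36 (2.70 to 7.34) compares different points of the region. At its highest lactate summit, the untreated summit within 50 bp had 20 tags, a ratio of 4.8.

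Away from gene ends, the highest ratio was within COX10, an assembly factor of cytochrome c oxidase, with 30 and 130 tags and a ratio of 5.13 (3.43 to 7.91). A region 47367 bp from FOXO3, a forkhead transcription factor that responds to growth factor withdrawal, had 30 and 129 tags, a ratio of 5.09 (3.40 to 7.86). A region within KIAA1958 had 21 and 90 tags. Whether a region within a gene is exonic or intronic was not read here. RALGPS2, a nucleotide exchange factor for Ral, lay 71659 bp from a region with 22 and 90 tags. Within GSE1 there were 24 and 96 tags, and 1535 bp from the immediate early gene ARC 27 and 107. The last 4 had ratios of 4.70 to 5.08, and their intervals overlapped one another and those of the regions above.

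The tripled regions with the most tags had ratios nearer the threshold and narrower intervals. SSR3, a subunit of the complex that helps proteins into the endoplasmic reticulum, had 120 untreated and 321 lactate tags at its start site, a ratio of 3.17 (2.56 to 3.94). PC, the pyruvate carboxylase that feeds pyruvate into oxaloacetate, had 112 and 295 tags at a start site (chr11:66958125-66958950), a ratio of 3.12 (2.50 to 3.91). MXD1, a partner of MAX that opposes MYC, had 100 and 255 tags, a ratio of 3.02 (2.39 to 3.85). All 3 regions hold a start site. COX8A, a subunit of cytochrome c oxidase, had 84 and 220 tags, a ratio of 3.10 (2.40 to 4.04). AKTIP stood apart in this group, with 79 and 271 tags in a region of 1542 bp, 457 bp from its annotated end, and a ratio of 4.06 (3.15 to 5.29). Within genes, MICALL2, which acts in cell junction assembly, had 116 and 316 tags and the actin crosslinker ACTN1 84 and 228. TNS3, a focal adhesion protein, had 79 and 226, and the telomere helicase RTEL1 77 and 206. A region 36820 bp from XXYLT1 had 81 and 214 tags. The ratios of these 5 ran from 3.13 to 3.39.

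**Figure D2:**
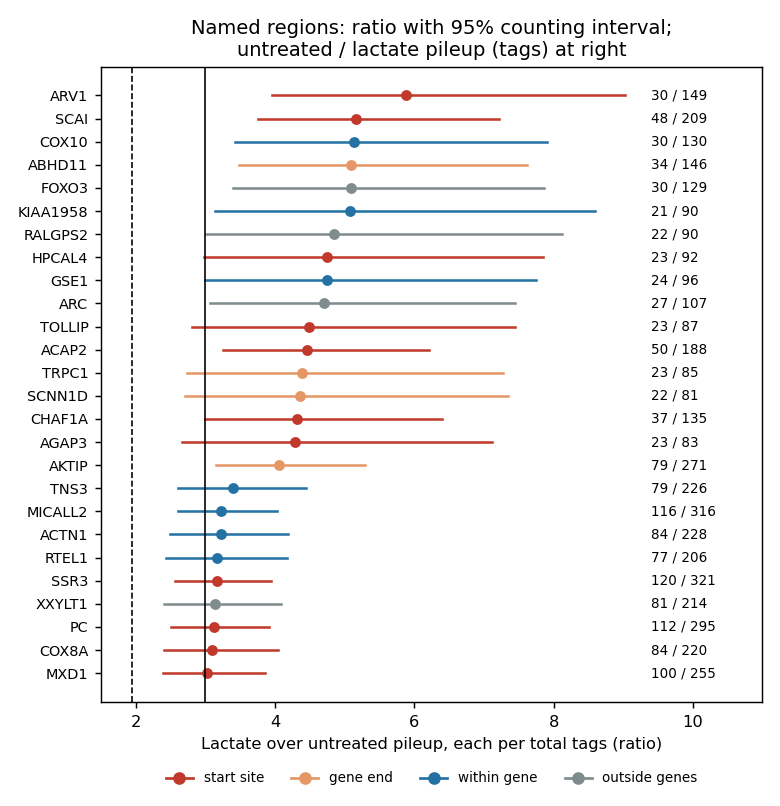
Ratio of lactate to untreated pileup per total tags (x axis) with its 95% counting interval for the 26 named tripled regions of highest ratio or most tags, coloured by location, with untreated and lactate tags printed at right. Lines mark the median of all regions, 1.94, and the threshold of 3. Intervals are wider for regions with few untreated tags, such as KIAA1958 with 21, and narrowest for SSR3, PC and MICALL2.

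Tripled regions were narrower and more often had a single summit than the other regions of this height. Widths and summits were called from the same pileups that the rule used, so they are not independent of the choice of regions. Their median merged width was 686 bp (quartiles 539 and 892) against 851 bp (643 and 1080). A single summit in both libraries was listed in 431 of 708 (60.9%, 57.2 to 64.5) against 4617 of 13099 (35.2%, 34.4 to 36.1). By width, the share of tripled regions was 9.59% (8.33 to 11) from 400 to under 600 bp and 7.04% (6.18 to 7.98) from 600 to under 800 bp. It was 2.55% (2.07 to 3.11) from 1000 to under 1500 bp and 1.67% (0.839 to 2.98) at 1500 bp or more. Below 400 bp it was 5.47% (4.11 to 7.11), so the share did not fall steadily with width. The median ratio of all regions went the same way, with 1.82 below 400 bp, 2.09 from 400 to under 600 bp and 1.77 at 1500 bp or more. Summed tags went with width too, from a median of 125 from 400 to under 600 bp to 168 at 1500 bp or more. The part of summed tags in the result was not tested. The share of tripled regions was 5.31% from 100 to under 120 summed tags and 5.54% from 200 to under 300, and at 300 or more tags it was 1.63% (0.707 to 3.19).

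**Figure D3:**
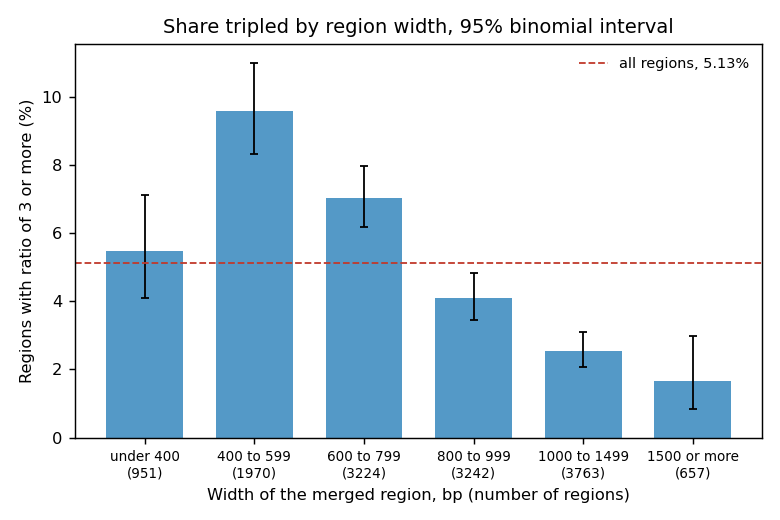
Percent of regions with a ratio of 3 or more (y axis) by width of the merged region in bp (x axis, number of regions in brackets), with 95% exact binomial intervals and the percent in all regions, 5.13%, as a dashed line. The share is highest from 400 to under 600 bp, 9.59%, and lowest at 1500 bp or more, 1.67%.

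The regions were not wider in the lactate list. The lactate region was the wider in 324 of 708 (45.8%), close to the 44.7% of the other regions, and the median difference, lactate minus untreated, was -11 bp against -8 bp. The highest summits of the libraries lay a median of 22 bp apart, and within 50 bp in 580 of 708 (81.9%), against 19 bp and 81.5%. More summits were listed in the untreated library than in the lactate library in 158 tripled regions (22.3%), close to the 22.6% of the other regions. Fewer were listed in the untreated library in 41 (5.79%), against 9.53% of the others. In 87 tripled regions at least 2 summits of the lactate list had an untreated summit within 50 bp. Their 109 lactate summits other than the highest had a median ratio of 1.58 (quartiles 1.29 and 1.88), and none reached 3. In the other regions the 6445 such summits had a median of 1.39. A summit that is not the highest of the lactate list was kept out of the rule by its own height, so these values lean low in both sets.

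The regions around tripled ones mostly had ratios under 3, as did those around the other regions. Within 10 kb of a tripled region, other shared regions were found in 475 cases, and the median of their ratios was 1.90 (quartiles 1.57 and 2.26). Around the other regions it was 1.76 (1.47 and 2.08), and over all 73366 shared regions of any height 1.66. In 20 of the 475 cases the neighbours' median was 3 or more, and around the other regions in 196 of 8607. Of all 73366 shared regions taken singly, 3301 had a ratio of 3 or more.

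Most tripled regions, like most of the other regions, had no further tripled region within 50 kb. One was found within 50 kb of 83 tripled regions (11.7%, 9.45 to 14.3), and within 50 kb of 8.77% (8.29 to 9.27) of the other regions. There were 625 that stood alone at this distance, 36 pairs, 1 group of 3 and 2 groups of 4. The first group of 4, on chromosome 22 from 36387732 to 36417703, began at the start site of MYH9, the heavy chain of nonmuscle myosin IIA, with 55 untreated and 187 lactate tags and a ratio of 4.03 (2.97 to 5.55). The other 3 lay 21887 to 29199 bp beyond that gene, with 32 to 37 untreated and 87 to 104 lactate tags and ratios of 3.22 to 3.73. Within 50 kb of the group there were 14 regions of at least 100 summed tags, with ratios of 1.65 to 4.03 and a median of 2.32. The second, on chromosome 1 from 154982958 to 155017835, held the start site of FLAD1, the FAD synthase, with 51 and 131 tags. Its other 3 lay at ZBTB7B, a zinc finger transcription factor, with 30 and 97, 31 and 80, and 54 and 145 tags. Among the 12 regions there, ratios ran from 1.31 to 3.83. The group of 3, on chromosome 19 from 48588907 to 48637891, comprised a region within SULT2B1, a sterol sulfotransferase, the start site of the sphingosine kinase SPHK2, and that of DBP, a clock-controlled transcription factor. They had 33 and 89, 51 and 137, and 29 and 88 tags. In each group, regions with ratios under 3 lay among or beside the tripled ones.

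Tripled regions lay at gene ends, within genes and far from genes. At gene ends, within 1 kb of where a protein-coding gene begins or stops in the annotation, lay 247 (34.9%, 31.4 to 38.5), elsewhere in a gene 245 (34.6%) and outside genes 216 (30.5%). The other regions divided into 32.8% (32.0 to 33.6), 34.4% and 32.8%. A start site of the promoter table lay inside 189 of 690 tripled regions (27.4%, 24.1 to 30.9) and 27.1% (26.3 to 27.9) of the others. That table was without chromosome 8 here and had entries for 79.2% of protein-coding genes. More than 100 kb from any gene end, 50 of 1317 regions were tripled (3.80%, 2.83 to 4.97), an interval below the 5.13% of all regions. Of the tripled regions 7.06% (5.29 to 9.20) lay that far out, and of the others 9.67% (9.17 to 10.2). Among regions under 800 bp, 8.71% (6.91 to 10.8) were tripled with a start site inside and 7.46% (6.76 to 8.22) without. At 800 bp or more the shares were 4.11% (3.40 to 4.91) and 2.55% (2.12 to 3.05), with intervals that overlapped in the narrower class. Width was not matched within the classes, where the median was 668 bp with a start site and 596 bp without, and 1098 and 1011 bp.

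Along chromosomes the share was higher near the outermost listed regions. Chromosome lengths were not used, so the edge here is the outermost region listed in either library. That region need not lie near a chromosome end. Within 5 Mb of it 145 of 1939 regions were tripled (7.48%, 6.35 to 8.74), and 563 of 11868 further in (4.74%, 4.37 to 5.14). The median ratios were 2.01 and 1.92. Both width classes had this order, with 11.3% (9.24 to 13.6) against 7.01% (6.34 to 7.74) under 800 bp and 4.40% (3.25 to 5.80) against 2.93% (2.53 to 3.36) at 800 bp or more. The order was the same in both classes of gene density. With under 20 protein-coding genes within 500 kb the shares were 7.27% (5.82 to 8.94) near the edge and 4.59% (4.17 to 5.04) further in. With 20 or more genes they were 7.77% (6.02 to 9.83) and 5.26% (4.46 to 6.16). The regions share 2 libraries and are not replicates, and the splits by distance from the edge, by gene density and by width were chosen after the values had been seen.

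**Figure D4:**
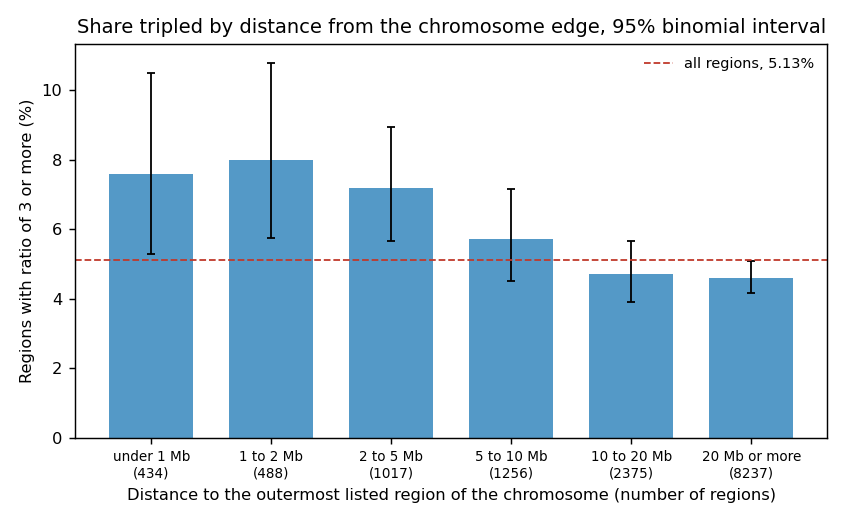
Percent of regions with a ratio of 3 or more (y axis) by distance to the outermost listed region of the chromosome (x axis, number of regions in brackets), with 95% exact binomial intervals and the percent in all regions, 5.13%, as a dashed line. The share is 7.60% under 1 Mb and 4.60% at 20 Mb or more.

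By chromosome, the share ran from 3.24% (2.24 to 4.53) on chromosome 11, with 33 of 1017 regions, to 9.88% (4.36 to 18.5) on X, with 8 of 81. Chromosome 22 had 31 of 386 (8.03%, 5.52 to 11.2). The intervals of chromosomes 11 and 22 were the only ones that lay wholly to 1 side of 5.13%. With an interval for every chromosome, some can miss the overall share by counting error alone, and regions are not replicates. On chromosome 11, 9 of the 92 regions in the first 10 Mb were tripled, against 2 of 140 from 30 to 40 Mb, where the median ratio was 1.68 and the median of summed tags 215. In the first 10 Mb these were 2.13 and 146. These 2 windows were picked as a contrast from all 10 Mb windows of the chromosome. In others, 3 of 81 regions were tripled from 10 to 20 Mb, 0 of 20 from 20 to 30 Mb and 12 of 348 from 60 to 70 Mb. Copy number of these stretches was not measured, and its part in the result was not tested.

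**Figure D5:**
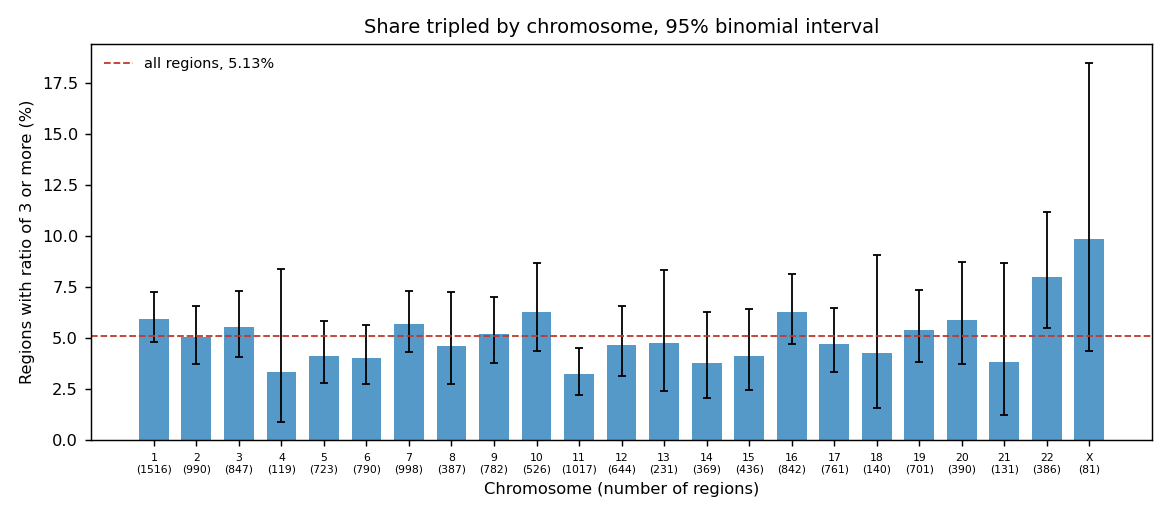
Percent of regions with a ratio of 3 or more (y axis) on each chromosome (x axis, number of regions in brackets), with 95% exact binomial intervals and the percent in all regions, 5.13%, as a dashed line. Chromosome 11 lies below the line and chromosome 22 above it, and X has a wide interval from 81 regions.

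Promoters inside tripled regions were rich in GC. The 239 promoters with their start site in a tripled region, in 189 regions, had a median GC content of 67.7% (quartiles 62.8 and 72.0) over the 300 bases from 250 before to 50 after the start. The 4682 promoters in the other regions had 64.7% (59.3 and 70.0), and the table's 22012 coding promoters had 62.3%. Promoters that share a region, as those of ARV1 and TTC13 do, are counted separately. The NFY letters CCAATC, on either strand, stood in 90 of 239 (37.7%, 31.5 to 44.1), against 28.8% (27.5 to 30.1) in the other regions and 16.9% in all promoters. The AP-1 letters TGANTCA stood in 6 (2.51%, 0.927 to 5.38), against 5.49% (4.85 to 6.18) and 6.16%, with intervals that overlapped. AP-1 is the dimer of FOS and JUN proteins, and NFY binds the CCAAT box of many promoters. The SP/KLF letters GGGCGG stood in 77.8% (72.0 to 82.9) against 74.2% (72.9 to 75.4), and the ETS letters CCGGAAG in 18.8% (14.1 to 24.4) against 21.9% (20.7 to 23.1). For these and the remaining motifs searched (TEAD GGAATG, CREB/ATF TGACGTCA, NRF1, E-box CACGTG, CTCF, RUNX TGTGGTT, NF-kappaB, HIF TACGTG, YY1 AAGATGGC and ZBTB33) the intervals of both sets overlapped. NFY was thus the only 1 of 14 motifs searched whose intervals lay apart. The intervals take promoters as independent draws, which those sharing a region are not, and no test was made. Matches to different motifs may overlap, and distal regions were not searched.

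Of the 24 gene lists examined, 6 had a gene with a tripled region at an annotated end. They held 371 distinct genes, of which 129 had a region of at least 100 summed tags at an end and 5 a tripled one. Of all protein-coding genes with such a region, 296 of 5243 (5.65%, 5.04 to 6.30) had a tripled one. The 5 genes were IRF1, E2F1, KDM4A, EGR2 and PGK1. IRF1, an interferon-induced transcription factor, had 48 untreated and 141 lactate tags (chr5:132490472-132491459), a ratio of 3.48 (2.49 to 4.94), and was 1 of 4 interferon response genes with a region at an end. E2F1, the activator of S-phase genes, had 40 and 117 tags (chr20:33686138-33686894), a ratio of 3.47 (2.40 to 5.10), and was 1 of 6 among cell cycle and tumour suppressor genes. KDM4A, a demethylase of histone H3 lysines, had 68 and 204 tags, a ratio of 3.55 (2.69 to 4.75), and was 1 of 6 histone modifying enzymes. The IRF1 and E2F1 promoters are among the sequences printed. EGR2, an immediate early zinc finger factor, had 31 and 81 tags, a ratio of 3.10 (2.02 to 4.85). PGK1, phosphoglycerate kinase of glycolysis and also on the housekeeping list, had 32 and 82 tags, a ratio of 3.04 (2.00 to 4.72). It was 1 of 8 glycolysis genes with a region at an end.

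Within 50 kb of gene ends, no list given here had a share whose interval excluded the 5.13% of all regions. The glycolysis list had 4 tripled regions among 42 (9.52%, 2.66 to 22.6), with a median ratio of 1.93. Besides PGK1 they lay 24396 bp from HK2, which phosphorylates glucose (26 and 79 tags), and within PFKFB3, which makes the activator of phosphofructokinase (27 and 81). The last, in reach of PKM, the pyruvate kinase, was the start site of PARP6 (41 and 106). The Notch list had 3 of 35 (8.57%, 1.80 to 23.1), each at or nearer to another gene. The region in reach of the ligand DLL4 lay 2022 bp from VPS18 (67 and 194 tags), that in reach of the target HES1 within LOC102724877 (74 and 190), and that in reach of HES4 within AGRN (22 and 78). The AGRN region is also in reach of ISG15. The interferon list had 3 of 33 (9.09%, 1.92 to 24.3), namely the IRF1 and AGRN regions and, in reach of IFIT2, the start site of LIPA (44 and 117). Invasion genes had 3 of 48 (6.25%, 1.31 to 17.2), for which MMP9 (57 and 179 tags), ITGB1 (33 and 87) and ITGB6 (23 and 81) were the nearest genes, 14851 to 22237 bp away. Adhesion genes had 3 of 56 (5.36%, 1.12 to 14.9), with 1 within JUP and 2 within PLEC.

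The squamous lineage lists held no tripled region within 50 kb. These were the identity factors with 44 regions (a count of 0 allows up to 6.82%, taken as 3 regions of the total), the keratins with 36 (up to 8.33%) and the differentiation genes with 30 (up to 10%). Lactate transport and sensing had 0 of 21 (up to 14.3%) and mesenchymal transition 0 of 18 (up to 16.7%). Each of these limits lies above the 5.13% of all regions, so a lower share was not detectable at these numbers. The median ratios were 1.82, 1.93, 1.85, 1.73 and 2.09, all below the threshold and near the 1.94 of all regions. The 4 lists of markers of other cell types also had none, among 5 to 20 regions each. Lists with 1 or 2 tripled regions included those for enzymes proposed to write or erase lactylation (1 of 33), hypoxia (1 of 37), cytokines (1 of 57), growth factors (1 of 39), cell cycle (1 of 32), AP-1 (2 of 81), YAP and TEAD (2 of 45) and histone modifying enzymes (2 of 37). Housekeeping genes had 3 of 57 (5.26%).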

How the data were processed

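ATAC-seq peak lists of 1 untreated and 1 lactate-treated library of CAL27 cells were analysed, with groups taken from the treatment labels. The build is hg38, and the tools are BWA 0.7.12, fastp 0.20.0 and MACS2 2.1.0, per the submitters' processing notes, while the file headers name MACS 2.2.7.1. Peaks were called by the authors library by library with no control, per the file headers, at a q-value threshold of 0.05, with a shift of 100 bp, an extension of 200 bp and duplicates kept from a file whose name points to deduplicated tags. The deposited pileup is a signal in tags, not scaled to depth (18248413 and 15401276 tags). The deposited fold enrichment is a ratio to local background and is the authors' value for each peak. Start, end, width and summit were deposited in bp.

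Merging, ratios and intervals were computed in Python 3.11.15 with pandas 2.3.3 and scipy 1.17.1, and checked on simulated data. Overlap of 1 bp merged regions. A merged region was left out as narrow when every listed region in it was a single-summit region of 218 to 226 bp. Regions on Y and unplaced contigs, 252 and 255 in the untreated and lactate lists, were left out. Ratio intervals are exact conditional Poisson and share intervals exact binomial, at 95%. The limit that a count of 0 allows is 3 divided by the number of regions. PCR copies are not independent draws, so they cover counting error only. Gene positions came from a RefSeq table of GRCh38.p14, the build hg38 names.

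With 1 library per group there is no test. The members and the gene lists were chosen with earlier results of these data known. Named regions are the 10 of highest ratio, the 10 of most summed tags, the 10 at a gene end of highest ratio, those at an end of a list gene, the 3 largest groups and 5 on each side of the threshold. A region takes its name from the start site or gene end within 1 kb, else the gene it lies in, else the nearest one. Alternatives to each threshold, scaling and window were tried. The result of 1 gene list is not reported here.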

Additional observations from a re-analysis of the deposited data

How the results depend on the processing

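No paired analysis was possible because the untreated and lactate arms are 1 library apiece. The number of tripled regions, 708 of 13807 (5.13%), became 1978 of 35965 (5.5%) at a minimum of 50 summed tags and 109 of 2313 (4.71%) at 200. Of the same 13807 regions it was 1 with pileups scaled to the shared regions and 183 with undivided pileups. With the mean pileup of all summits it was 1197 of 10729 (564 of them among the 708). Among regions at or above the median fold enrichment of their own list in both libraries it was 450 of 10715. The number stayed within 1.5 times under the other alternatives tried. It was 882 of 19926 with narrow regions kept and 1023 of 13807 with an interval lower bound of 2 or more. When merging needed a larger overlap of the shorter region it was 708 of 13810 (703 the same). It was 704 when merged regions holding any narrow region were left out, an alternative chosen after seeing the data. The share at gene ends, 34.9%, was 46.8% with a 5 kb window, 30.3% with start sites alone, 43.2% with all RefSeq genes and 28.8% with narrow regions kept. The share with another tripled region within 50 kb, 11.7%, was 3.81% at 10 kb, 26.4% at 200 kb and 7.34% at 200 summed tags. The median width, 686 bp, was 585 bp in the lactate and 634 bp in the untreated list, and 807 bp at 200 summed tags. The larger windows and smaller sets change these by construction, and the cause of the other shifts was not tested. With 21 to 120 untreated tags per region, the interval lay at or above 2.5 in 134 of the 708 regions, which the rule had chosen by the same pileups.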
